A study of Mus musculus with 32 samples.

Results

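CXC chemokines are small secreted proteins that direct the movement of leukocytes, and 8 of their genes are described here: Cxcl1, Cxcl2, Cxcl3, Cxcl5, Cxcl9, Cxcl10, Cxcl11 and Cxcl16. They were taken by gene symbol from 22216 genes of an RNA-sequencing study of mouse dendritic cells, and each symbol stood on 1 entry. The cells were grown from C57BL/6 bone marrow with GM-CSF and harvested on day 9. Wild-type (WT) cells were compared with cells of Lmp7-/-Mecl1-/- mice, the double knockouts (dKO) that lack a pair of catalytic subunits of the immunoproteasome, the proteasome form of immune cells. All groups shared the strain and the culture, and lipopolysaccharide (LPS, a component of bacterial cell walls, 1 µg/mL) was added for 0, 1, 2 or 6 h, with 0 h meaning no LPS. Each of the 8 combinations of genotype and time had 4 libraries, 32 in all, and the labels do not say whether these were separate mice or cultures. P-values therefore measure the spread between libraries, which may be technical. GM-CSF cultures are known to hold macrophage-like cells and granulocytes beside dendritic cells, and in bulk RNA fewer cells of a type and less RNA per cell cannot be told apart.

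The family is split by receptor and by induction. Cxcl1, Cxcl2, Cxcl3 and Cxcl5 bind CXCR2 and attract neutrophils, and in myeloid cells LPS induces them through TLR4 and the transcription factor NF-kappaB. Cxcl9, Cxcl10 and Cxcl11 bind CXCR3 on activated T cells and NK cells and are induced by interferons. LPS reaches the second arm by inducing interferon beta. Cxcl16 stands in neither set: it is made as a transmembrane protein, binds CXCR6 and is released by cleavage. C57BL/6 mice are known to carry a frameshift in Cxcl11, so its values here are those of a transcript.

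On the mm9 build Cxcl5, Cxcl3, Cxcl1 and Cxcl2 lie in this order on chromosome 5 between 91188325 and 91334964. Cxcl9, Cxcl10 and Cxcl11 lie further along the same chromosome between 92750357 and 92792303, and Cxcl16 is on chromosome 11 (70267736 to 70273123). Promoters of 5 of the 8 members were matched in RefSeq (build GRCm38.p6), and the 250 bases before each start are shown because they carry the elements through which the 2 arms are known to act. Capitals mark matches to the NF-kappaB consensus and to the interferon-stimulated response element (ISRE, searched as GAAA, any 2 bases, GAAA), on either strand.
Cxcl1: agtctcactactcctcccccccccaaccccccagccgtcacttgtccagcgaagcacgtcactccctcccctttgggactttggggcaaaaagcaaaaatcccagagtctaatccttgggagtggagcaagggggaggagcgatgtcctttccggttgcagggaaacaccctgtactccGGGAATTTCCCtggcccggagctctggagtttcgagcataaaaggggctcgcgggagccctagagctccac
Cxcl2: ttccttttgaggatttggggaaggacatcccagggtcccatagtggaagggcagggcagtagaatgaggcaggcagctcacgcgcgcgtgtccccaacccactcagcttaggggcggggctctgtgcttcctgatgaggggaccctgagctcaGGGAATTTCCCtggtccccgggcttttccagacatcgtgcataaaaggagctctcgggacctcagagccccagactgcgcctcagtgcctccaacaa
Cxcl3: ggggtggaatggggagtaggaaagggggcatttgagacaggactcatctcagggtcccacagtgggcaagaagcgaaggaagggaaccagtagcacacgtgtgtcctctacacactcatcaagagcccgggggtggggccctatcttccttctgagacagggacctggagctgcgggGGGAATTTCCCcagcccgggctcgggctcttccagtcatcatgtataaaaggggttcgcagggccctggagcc
Cxcl9: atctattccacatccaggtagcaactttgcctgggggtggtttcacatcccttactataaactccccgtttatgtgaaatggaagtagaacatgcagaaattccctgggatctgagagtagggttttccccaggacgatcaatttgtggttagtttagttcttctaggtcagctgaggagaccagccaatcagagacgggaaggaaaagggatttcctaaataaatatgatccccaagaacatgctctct
Cxcl10: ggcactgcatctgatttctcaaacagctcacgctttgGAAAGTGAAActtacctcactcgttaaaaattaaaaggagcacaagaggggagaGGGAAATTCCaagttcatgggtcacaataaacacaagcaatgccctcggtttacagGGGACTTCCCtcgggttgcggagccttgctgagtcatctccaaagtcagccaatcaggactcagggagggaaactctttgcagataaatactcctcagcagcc
Cxcl1, Cxcl2 and Cxcl3 each held an NF-kappaB match, beginning 71, 97 and 73 bases before the start, and the capitals cover overlapping matches on both strands. Cxcl10 held 2 such matches, at 159 and 103 bases, and an ISRE match at 213 bases. Cxcl9 had neither in this window, and no match to the interferon gamma element (GAS, searched as TTC, any 3 bases, GAA) was found in any of the 5. A TATAAA box began 30 bases before the start of Cxcl3 and 195 bases before that of Cxcl9. Of 32851 mouse promoters of this length, 3.9% held an NF-kappaB match, 2.98% an ISRE match, 7.02% a GAS match and 12.4% a TATAAA box. A match is a run of letters and says nothing of binding. Cxcl5, Cxcl11 and Cxcl16 were not matched.

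The 5 dKO libraries that lay off their labelled time bear on every dKO value. Over all tested genes, the members among them, the library labelled dKO 0 h replicate 2 correlated best with WT at 1 h, dKO 1 h replicate 2 with WT at 2 h, dKO 2 h replicate 2 with WT at 0 h, dKO 2 h replicate 4 with WT at 6 h, and dKO 6 h replicate 4 with WT at 2 h. Each of the other 27 libraries was nearest to its labelled time. The nearest times of the 3 replicate 2 libraries are their labelled times in another order, and so are those of the pair of replicate 4 libraries. Whether labels were exchanged was not tested, and every as-labelled dKO value holds only as far as the labels do. All groups are kept as labelled, and the dKO results are also given without these 5 libraries, a choice made after the data were seen. In every dKO library Psmb8, which encodes LMP7, was at most 7.42 RPKM (reads per kilobase of gene, scaled to the reads of the library) against at least 150.3 in WT, and Psmb10, which encodes MECL1, at most 17.1 against at least 41.6. Libraries held 1.27 to 1.87 Gb of aligned sequence.

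In WT cells, Cxcl1 and Cxcl2 rose from low levels to their highest mean within the first hour of LPS. Cxcl1, a CXCR2 ligand, was at 1.11, 0.291, 1.29 and 0.786 RPKM in the 4 WT libraries at 0 h, and at 472, 491, 548 and 399 at 1 h. It stood at 269.9, 395, 358 and 265 at 2 h and at 59.99, 80.5, 60.8 and 49.8 at 6 h. The 4 times did not overlap, and the 6 h libraries were still far above those at 0 h. The log2 change against 0 h, on the scale of log2(RPKM + 0.5) used throughout, was 8.51 ± 1.42 (SE) at 1 h, 7.93 at 2 h and 5.58 at 6 h (limma adjusted p = 0.00013, 2.68e-05 and 0.00102). Cxcl2, the most abundant neutrophil attractant here, was at 16.03, 10.1, 18.8 and 14.6 RPKM at 0 h and at 2331, 2127, 2184 and 2258 at 1 h. It was at 1617, 1884, 1538 and 1582 at 2 h and at 249, 291, 195 and 232 at 6 h. These groups did not overlap either, and the log2 changes against 0 h were 7.21 ± 1.17, 6.78 and 3.99 (limma adjusted p = 9.97e-05, 1.79e-05 and 0.00328).

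Cxcl3 and Cxcl5 reached their highest WT mean 1 step later, at 2 h. Cxcl3 was at 17.1, 7.78, 17.2 and 13.6 RPKM at 0 h, at 281, 212, 252 and 278 at 1 h and at 402, 408, 414 and 454 at 2 h. At 6 h it stood at 212, 185, 152 and 224, so that its 1 h and 6 h libraries overlapped while 0 h lay below and 2 h above them. Its log2 changes against 0 h were 4.21 ± 0.67, 4.93 and 3.79 (limma adjusted p = 8.61e-05, 3.8e-06 and 1.73e-05). Cxcl5, known chiefly from epithelium and platelets, was barely present. It was listed at 0 in 3 of the 4 WT libraries at 0 h and at 0.0309 RPKM in the other, and ranged from 0.356 to 0.647 at 1 h, from 0.958 to 1.89 at 2 h and from 0.362 to 0.648 at 6 h. Only 8 of the 32 libraries had 1 RPKM or more, all of them after LPS. Cxcl5 missed the test at 1 h (0.92 ± 0.41, limma adjusted p = 0.0608), passed at 2 h (1.78, adjusted p = 0.000364) and passed narrowly at 6 h (0.93, adjusted p = 0.0437). The 6 h call was lost when any 1 of the 8 libraries was left out (limma adjusted p = 0.0541 to 0.0942). Cxcl1, Cxcl2 and Cxcl3 are close paralogues, and how reads matching more than 1 of them were assigned is not given in the sources used here, so their separate levels carry that uncertainty.

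The interferon-induced members had their highest WT mean at 2 h (Cxcl10) or 6 h (Cxcl9 and Cxcl11). Cxcl10, the most abundant of the 8 members at 2 h and 6 h, was at 5.46, 5.70, 4.95 and 5.69 RPKM in WT at 0 h and at 1322, 1062, 1149.5 and 1123 at 1 h. It reached 3464, 3308, 3125 and 3296 at 2 h and was at 1703, 1866, 1664 and 1533 at 6 h. Each time was apart from the others, with log2 changes against 0 h of 7.61 ± 1.58, 9.12 and 8.15 (limma adjusted p = 0.000721, 1.92e-05 and 5.38e-05). Cxcl9, which among the 3 depends most on interferon gamma, was at 0.0708 to 0.146 RPKM at 0 h and at 1.63 to 1.87 at 1 h. It was at 12.3, 10.1, 14.3 and 17.3 at 2 h and at 14.7, 11.3, 14.8 and 15.6 at 6 h, and these last 2 times overlapped. Cxcl9 was higher than at 0 h by 1.89 ± 0.68, 4.49 and 4.57 (limma adjusted p = 0.0237, 6.78e-06 and 2.01e-06). Its 1 h call was lost with median-of-ratios scaling (adjusted p = 0.0534) and with the replicate number within genotype as a block (adjusted p = 0.0519). Cxcl11 was at 0.0427 to 0.162 RPKM at 0 h, at 6.98, 4.60, 6.60 and 4.59 at 1 h, at 29.2, 26.5, 27.4 and 23.4 at 2 h and at 31.1, 33.7, 33.1 and 24.0 at 6 h. Like Cxcl9 it had overlapping libraries at 2 h and 6 h, and its log2 changes against 0 h were 3.33 ± 1.14, 5.48 and 5.66 (limma adjusted p = 0.0181, 0.000122 and 8.08e-05). The values of Cxcl9 and Cxcl11 at 0 h lie below the added 0.5, so these changes understate the ratio of levels.

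Cxcl16 was the 1 member already abundant without LPS. In WT it was at 189, 195, 232 and 209.7 RPKM at 0 h, at 282, 263, 318 and 271 at 1 h, at 287, 278, 318 and 298 at 2 h and at 381, 391, 417 and 393 at 6 h. The 1 h and 2 h libraries overlapped, while 0 h lay below and 6 h above them. It was higher than at 0 h by 0.46 ± 0.16, 0.52 and 0.94 (limma adjusted p = 0.0197, 0.00451 and 9.58e-06). The 1 h call was lost without WT 0 h replicate 1 (adjusted p = 0.0538) and without WT 1 h replicate 3 (adjusted p = 0.0616). Quantile normalization ended both the 1 h and the 2 h call of Cxcl16 (0.30 at each, limma adjusted p = 0.142 and 0.104). The median log2 change of all tested genes was -0.42, -0.73 and -0.65 at the 3 times in WT, so RPKM understates each rise relative to the median gene by that amount.

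**Figure D1:**
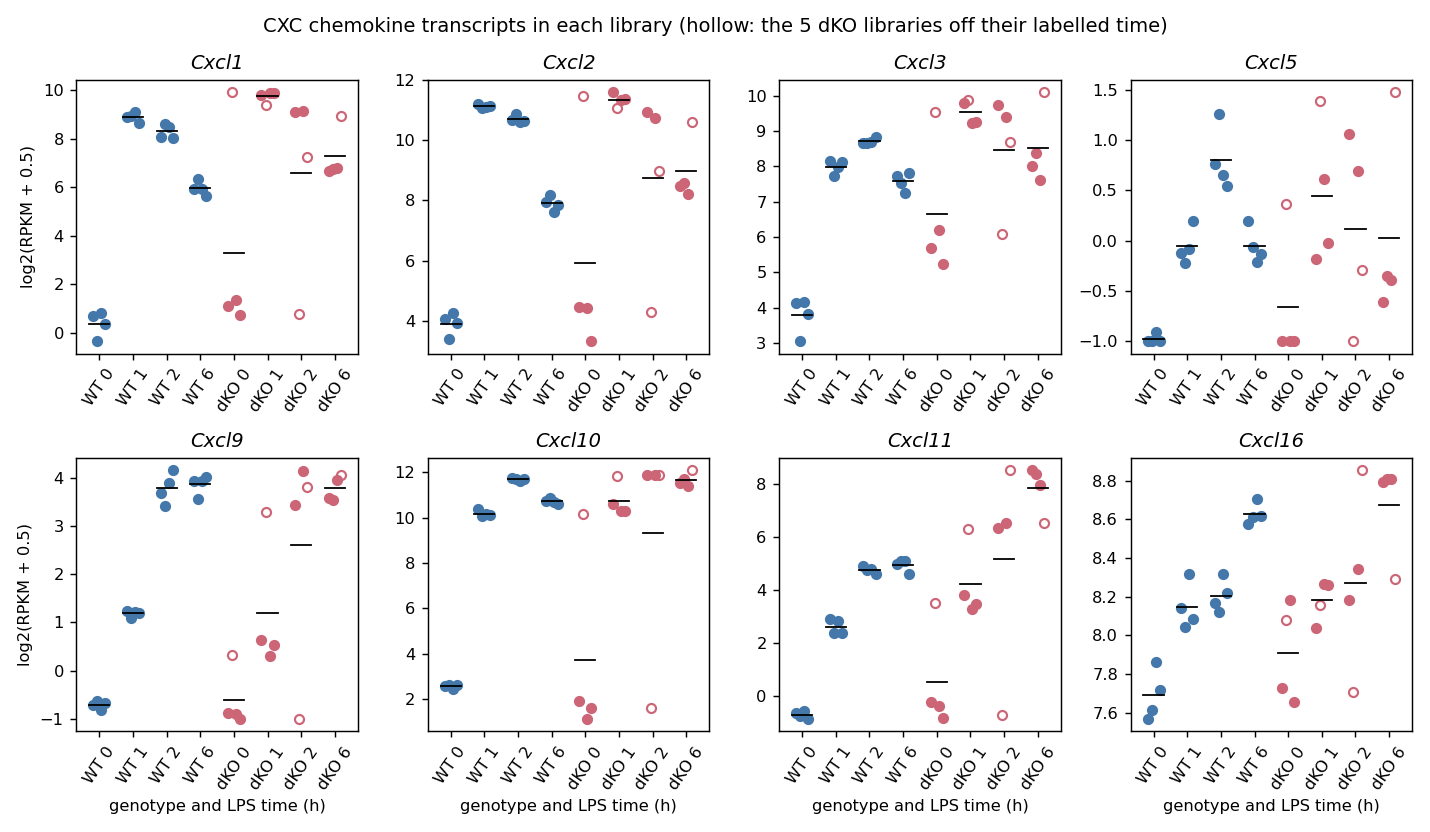
Level of each CXC chemokine as log2(RPKM + 0.5) in the 32 libraries by genotype and hours of LPS, with WT blue, dKO red, black bars for group means and hollow points for the 5 dKO libraries off their labelled time. The WT libraries of a time lie close together, whereas Cxcl1 in the hollow dKO 0 h library is at 968 RPKM against 1.15 to 2.04 in its group.

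Counted over the family, 7, 8 and 8 of the 8 members were called higher in WT at 1, 2 and 6 h of LPS against 0 h, where 6.84%, 11.2% and 14.9% of the 11154 tested genes were. Cxcl5, Cxcl9 and Cxcl11 were tested only because libraries after LPS, or nearest to a time after LPS, reached 1 RPKM. Their calls as higher were thus favoured by that filter. Without the 5 libraries, which narrows the pooled spread although no WT library is removed, all 8 were higher at each time, against 11%, 14.3% and 18.6% of genes. From 1 h to 2 h only Cxcl9 passed (2.60 ± 0.68, limma adjusted p = 0.00751), with 32.8% of genes called in either direction. Omitting the 5 libraries, Cxcl3, Cxcl5, Cxcl9, Cxcl10 and Cxcl11 were higher at 2 h than at 1 h (0.72, 0.86, 2.60, 1.51 and 2.15) and Cxcl1 and Cxcl2 were lower (-0.58 and -0.43), with 71.7% of genes called. Both falls were close to the median of all genes at this step, -0.30. With median-of-ratios scaling as well they were -0.27 and -0.12 and were lost (limma adjusted p = 0.189 and 0.594), while Cxcl16 was then called higher (0.37, adjusted p = 0.00149). The fall of Cxcl2 was also lost without any 1 of 7 of the 8 WT libraries (limma adjusted p = 0.0534 to 0.0874).

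From 2 h to 6 h in WT, as labelled only Cxcl16 passed (0.42 ± 0.16 higher, limma adjusted p = 0.0316), where 45.6% of genes were called, and that call was lost without any 1 of 6 of the 8 libraries (adjusted p = 0.052 to 0.0737). With the 5 libraries left out, all 4 neutrophil-attracting members were lower at 6 h than at 2 h: Cxcl1 by -2.35 ± 0.19, Cxcl2 by -2.78 ± 0.18, Cxcl3 by -1.13 ± 0.21 and Cxcl5 by -0.86 ± 0.16 (limma adjusted p = 3.82e-11, 1.39e-12, 4.16e-05 and 3.73e-05). Of the interferon-induced set Cxcl10 was lower (-0.97 ± 0.11), and Cxcl9 (0.08 ± 0.14) and Cxcl11 (0.18 ± 0.15) did not pass (adjusted p = 0.635 and 0.275). In this fit 74.2% of genes were called. At 6 h Cxcl1 and Cxcl2 stood at 13.1% and 10.9% of their highest WT mean, Cxcl3 at 46.1%, Cxcl5 at 36.6% and Cxcl10 at 51.3%, while Cxcl9, Cxcl11 and Cxcl16 had their highest mean at that time.

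**Figure D2:**
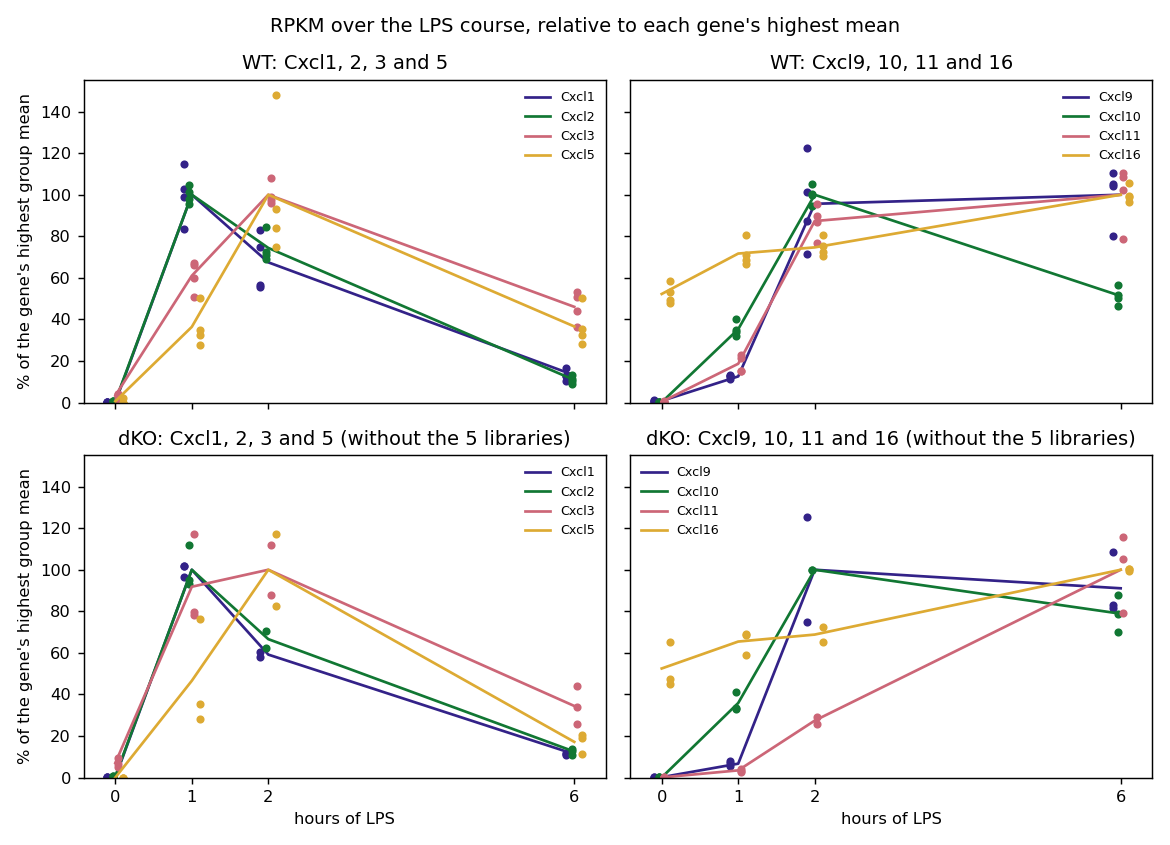
RPKM at 0, 1, 2 and 6 h of LPS as a percentage of each gene's highest group mean, in WT (upper row) and in dKO without the 5 libraries (lower row), with lines through group means and a point per library. Cxcl1 and Cxcl2 peak at 1 h in both genotypes, and Cxcl11 in dKO is at 27.4% of its 6 h mean at 2 h, where in WT it is at 87.3%.

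Because RPKM is per length, levels can be set side by side. Without LPS, Cxcl16 made 85.5% ± 2.71 (SD, n = 4) of the summed RPKM of the 8 members in WT, Cxcl2 6.11% ± 1.11 and Cxcl10 2.28% ± 0.34. At 1 h the 4 neutrophil-attracting members made 67.1% ± 1.04 and the 3 interferon-induced members 26.5% ± 1.23. At 2 h the order had turned, to 39.7% ± 2.12 and 55.4% ± 2.00, and at 6 h it was 18.9% ± 1.95 and 66.0% ± 1.70. The mean summed RPKM was 242, 4414, 6032 and 2629 at the 4 times. In dKO, without the 5 libraries, the neutrophil-attracting share was 23.1% ± 3.57 at 0 h (n = 3) against 12.2% ± 2.88 in WT, and 72.6% ± 0.198 at 1 h (n = 3), 42.9% ± 2.30 at 2 h (n = 2) and 15.9% ± 0.73 at 6 h (n = 3). The interferon-induced share was 0.94% ± 0.39, 22.6% ± 0.77, 52.9% ± 1.84 and 74.1% ± 0.48. With all libraries as labelled the dKO neutrophil-attracting share was 36.4% ± 26.6 at 0 h and 21.8% ± 11.8 at 6 h.

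A balance of the sets was taken per library as the mean log2 level of Cxcl1, Cxcl2, Cxcl3 and Cxcl5 minus that of Cxcl9, Cxcl10 and Cxcl11, as a description with no test. In WT it was 1.39 ± 0.38 (SD, n = 4) at 0 h, 2.33 ± 0.12 at 1 h, 0.39 ± 0.24 at 2 h and -1.16 ± 0.18 at 6 h, and the 4 times did not overlap. The dKO libraries had 2.60 ± 0.46, 2.39 ± 1.07, 0.29 ± 1.85 and -1.56 ± 1.19 as labelled. Without the 5 libraries they had 2.42 ± 0.34 (n = 3), 2.91 ± 0.21 (n = 3), 0.23 ± 0.36 (n = 2) and -2.16 ± 0.11 (n = 3). The dKO libraries so kept lay above every WT library at 0 h and 1 h, overlapped them at 2 h and lay below them at 6 h. The 6 h position rests largely on Cxcl11, whose log2 difference of dKO from WT was then 3.35. Cxcl9 and Cxcl10 differed by -0.17 and 0.82, and Cxcl1, Cxcl2, Cxcl3 and Cxcl5 by 0.78, 0.52, 0.42 and -0.40. It is thus no shift shared by all members of a set. The as-labelled dKO value at 2 h turned to -0.48 without dKO 2 h replicate 2.

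**Figure D3:**
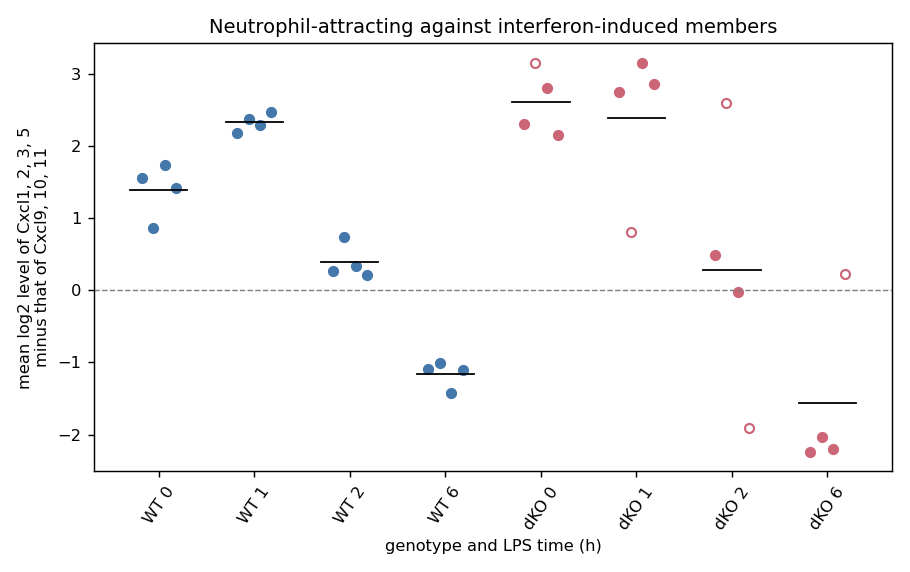
Mean log2 level of Cxcl1, Cxcl2, Cxcl3 and Cxcl5 minus that of Cxcl9, Cxcl10 and Cxcl11 in each library, with WT blue, dKO red, bars for group means of all 4 libraries and hollow points for the 5 dKO libraries off their labelled time. In WT the balance falls from 2.33 at 1 h to -1.16 at 6 h, and the 3 filled dKO points at 6 h lie lower, near -2.16. Of the genes in the balance, Cxcl11 differs most between the genotypes at 6 h (3.35 without the 5 libraries).

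In dKO cells LPS also raised the family. As labelled, 7 of 8 members were called higher at each of 1, 2 and 6 h against 0 h, where 5.82%, 9.17% and 14.7% of genes were, and the member missed was Cxcl16 at 1 h and Cxcl5 at 2 h and 6 h. For Cxcl5, Cxcl9 and Cxcl11 the filter favoured this direction, as in WT. All 8 were called at each time once the 5 libraries were left out, against 9.49%, 13.8% and 18.8% of genes. The log2 changes at 1 h were then 8.82 ± 0.22 for Cxcl1, 7.35 ± 0.21 for Cxcl2, 3.72 ± 0.25 for Cxcl3 and 8.85 ± 0.13 for Cxcl10, where as labelled they were 6.49, 5.41, 2.87 and 7.05 (all limma). At 6 h Cxcl10 and Cxcl11 were 9.98 ± 0.13 and 8.79 ± 0.17 above 0 h, against 7.97 and 7.34 as labelled. The as-labelled calls at 2 h rested on single libraries: those of Cxcl1, Cxcl2 and Cxcl3 were lost without any 1 of 6 of the 8 libraries (limma adjusted p = 0.0538 to 0.172) and that of Cxcl16 without any 1 of 5. At 1 h the calls of Cxcl5, Cxcl9 and Cxcl11 were lost without any 1 of 5, 4 and 2 libraries, and at 6 h those of Cxcl1, Cxcl2 and Cxcl3 without any 1 of 3, 4 and 3. With the 5 libraries left out, Cxcl16 at 1 h (0.33 ± 0.10) was lost without dKO 0 h replicate 4 (0.23, limma adjusted p = 0.0532).

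Between LPS times within dKO, as labelled no member was called from 1 h to 2 h (limma), where 2.17% of genes were. An unadjusted limma p below 0.05 was reached there by 3 members, beside 2170 of all 11154 tested genes. None was called from 2 h to 6 h either (2 members at an unadjusted p below 0.05), where 0% of genes were, although 3354 genes had an unadjusted p below 0.05. In the fit that omits the 5 libraries, 4 members were higher at 2 h than at 1 h and 2 lower, with 64% of genes called. The higher ones were Cxcl5 (0.74), Cxcl9 (3.29), Cxcl10 (1.49) and Cxcl11 (2.94), and the lower ones Cxcl1 (-0.76) and Cxcl2 (-0.58). From 2 h to 6 h Cxcl11 (1.85 ± 0.19) and Cxcl16 (0.54 ± 0.11) were higher and 5 members lower: Cxcl1 (-2.38), Cxcl2 (-2.42), Cxcl3 (-1.56), Cxcl5 (-1.33) and Cxcl10 (-0.35), with 67.3% of genes called. Only 2 dKO libraries remain at 2 h in that fit.

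The main comparison set dKO against WT at each time. As labelled, 1 of 8 members was called at 0 h and 0 at 1, 2 and 6 h (limma), where 6.84%, 10.9%, 12.4% and 14.8% of genes were called in either direction. An unadjusted limma p below 0.05 was reached by 1, 1, 0 and 1 members, beside 2114, 2584, 3065 and 2994 of all 11154 tested genes. With the 5 libraries left out, the members called numbered 3, 4, 3 and 4 of 8, against 26.2%, 39.2%, 33.1% and 46.9% of genes. Only 2 dKO libraries then remain at 2 h. Over all genes the median difference was -0.19, -0.18, 0.09 and -0.15 as labelled and -0.06, -0.11, -0.09 and -0.12 without the 5 libraries. Of these 14 calls 12 were higher in dKO and 2 lower, with a member called at several times counted at each of them. The shares of all genes called higher and called lower are not given here. The split therefore says nothing of the members relative to other genes. Where a member's groups are said not to overlap, the share of all genes without overlap is not given here. Such a statement therefore sets no member apart from other genes.

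Cxcl3 was the 1 member called at 0 h as labelled. The dKO libraries at 0 h had 50.9, 738, 72.7 and 37.2 RPKM, the second being the library that lay nearest to WT at 1 h, against 7.78 to 17.2 in WT. All 4 dKO values lay above all 4 WT values. The log2 difference was 2.87 ± 0.67 (limma adjusted p = 0.00642; exact two-sided permutation p = 0.0286, the smallest that 70 splits can give) and 1.92 ± 0.23 without the 5 libraries (adjusted p = 7.07e-07), a 3.85-fold ratio of mean RPKM. The as-labelled call was lost when only the 0 h groups were fitted (adjusted p = 0.0648). At 1 h the dKO libraries had 891, 934, 596 and 607 RPKM, all above the 212 to 281 of WT, with a difference of 1.54 ± 0.67 that did not pass (limma adjusted p = 0.155, or 0.000328 with only the 1 h groups fitted) and of 1.43 ± 0.23 without the 5 libraries that did (adjusted p = 2.46e-05). At 2 h they had 852, 67.2, 669 and 415, and the groups overlapped. The difference was -0.24 ± 0.67 as labelled and 0.85 ± 0.26 without the 5 libraries (limma adjusted p = 0.0142), and the latter was lost without dKO 2 h replicate 1 as well (0.67, adjusted p = 0.168). At 6 h they had 258, 334, 194 and 1094 against 152 to 224, and neither 0.94 ± 0.67 nor 0.42 ± 0.23 without the 5 libraries passed (adjusted p = 0.39 and 0.14).

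Cxcl1 was called higher in dKO at each time once the 5 libraries were left out, and at none as labelled. At 0 h the dKO libraries had 1.69, 968, 2.04 and 1.15 RPKM against 0.291 to 1.29 in WT, a difference of 2.89 ± 1.42 (limma adjusted p = 0.268) as labelled and 0.68 ± 0.20 without the 5 libraries (adjusted p = 0.0138). The latter was lost without WT 0 h replicate 2 (0.44, adjusted p = 0.0655) or dKO 0 h replicate 3 (0.54, adjusted p = 0.0926). After 1 h the 4 dKO libraries, 910.5, 682, 961 and 959 RPKM, all lay above the 399 to 548 of WT (exact permutation p = 0.0286). The difference was 0.87 ± 1.42 as labelled (limma adjusted p = 0.766, or 0.00185 with only the 1 h groups fitted) and 0.99 ± 0.20 without the 5 libraries (adjusted p = 0.000367), a 1.98-fold ratio of means. At 2 h the libraries were at 547, 1.23, 569.6 and 152 RPKM against 265 to 395. The difference of -1.74 ± 1.42 (adjusted p = 0.432) turned to 0.81 ± 0.23 without the 5 libraries (adjusted p = 0.00766), and that call was lost without dKO 2 h replicate 3 (0.78, adjusted p = 0.0575). At 6 h the dKO libraries, 101, 107, 112 and 489 RPKM, all lay above the 49.8 to 80.5 of WT, with 1.33 ± 1.42 as labelled (limma adjusted p = 0.582; exact permutation p = 0.0286) and 0.78 ± 0.20 without the 5 libraries (adjusted p = 0.00274).

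Cxcl2 was called higher in dKO at 6 h, without the 5 libraries. The dKO libraries had 21.7, 2844, 21.0 and 9.54 RPKM at 0 h, 3078, 2136, 2565 and 2623 at 1 h and 1947, 19.3, 1723 and 500.2 at 2 h, and at each of these times they overlapped WT. At 6 h they had 355, 381, 298 and 1542 RPKM, all above the 195 to 291 of WT (exact permutation p = 0.0286). The limma differences as labelled were 2.01, 0.21, -1.95 and 1.06 ± 1.17 at 0, 1, 2 and 6 h (adjusted p = 0.362, 0.931, 0.276 and 0.594). Omitting the 5 libraries they were 0.16, 0.30, 0.15 and 0.52 (SE 0.20, and 0.23 at 2 h), and only the last passed (adjusted p = 0.0357). It was lost without WT 6 h replicate 3 or 4 or dKO 6 h replicate 1 or 2 (0.42 to 0.50, limma adjusted p = 0.0675 to 0.126). At 0 h a difference of 0.54 became called when dKO 0 h replicate 4 was also left out (adjusted p = 0.0187). For Cxcl5 the dKO libraries had 0, 0.790, 0 and 0 RPKM at 0 h, 0.382, 2.12, 1.03 and 0.481 at 1 h, 1.59, 0, 1.12 and 0.318 at 2 h and 0.157, 0.281, 0.261 and 2.28 at 6 h. Each group overlapped WT as labelled, and at 6 h the 3 dKO libraries left without the 5 lay below WT, yet no difference passed with or without the 5 libraries (0.32, 0.51, -0.69 and 0.08 as labelled and -0.02, 0.19, 0.07 and -0.40 without them).

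Cxcl11 had the largest genotype difference of the 8 members at 2 h and 6 h without the 5 libraries. At 6 h the dKO libraries had 365, 333, 251 and 91.1 RPKM against 24.0 to 33.7 in WT. Every dKO library lay above every WT library (exact permutation p = 0.0286), the lowest being dKO 6 h replicate 4, 1 of the 5. The ratio of means was 8.53-fold as labelled and 10.4-fold without the 5 libraries. The log2 difference was 2.91 ± 1.14 as labelled, which missed the test (limma adjusted p = 0.0882) but passed when only the 6 h groups were fitted (adjusted p = 0.00295), and 3.35 ± 0.16 without the 5 libraries (adjusted p = 4.88e-14). At 2 h the dKO libraries had 81.0, 0.0943, 92.5 and 367 RPKM against 23.4 to 29.2. The difference was 0.41 ± 1.14 as labelled (limma adjusted p = 0.841) and 1.69 ± 0.18 without the 5 libraries (limma adjusted p = 1.75e-07). The latter rests on 2 dKO libraries, for which the smallest possible exact permutation p is 0.133. As labelled the 2 h difference became called without dKO 2 h replicate 2 alone (2.38, limma adjusted p = 0.0281) and turned to -0.05 and -0.71 without dKO 2 h replicate 3 and replicate 4. At 1 h the dKO libraries had 13.5, 78.3, 9.12 and 10.4 RPKM, all above the 4.59 to 6.98 of WT, with 1.60 ± 1.14 as labelled (limma adjusted p = 0.432) and 0.90 ± 0.16 without the 5 libraries (adjusted p = 0.000105). Before LPS they had 0.340, 10.9, 0.256 and 0.0594 RPKM, overlapped WT, and no difference passed (1.22 as labelled and 0.22 without the 5 libraries).

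Cxcl10 was lower in dKO at rest and higher at 6 h without the 5 libraries. At 0 h the dKO libraries had 3.31, 1151, 1.69 and 2.54 RPKM against 4.95 to 5.70 in WT. The 1151 was in the library nearest to WT at 1 h, and the other 3 lay below every WT library. The difference of 1.14 ± 1.58 (limma adjusted p = 0.699) turned to -1.02 ± 0.12 without the 5 libraries (adjusted p = 7.07e-07), where the exact permutation p of 0.0571 is the smallest that 3 against 4 libraries can give. After 1 h the dKO libraries had 1561, 3607, 1260.3 and 1256 RPKM and at 2 h 3792, 2.51, 3785 and 3749, and no difference passed (0.57 and -2.38 as labelled, 0.22 and 0.20 without the 5 libraries). With median-of-ratios scaling as well the 1 h difference was 0.34 and called (adjusted p = 0.0329). At 6 h they had 2986, 3321, 2654 and 4362 RPKM, all above the 1533 to 1866 of WT (exact permutation p = 0.0286), and the difference was 0.96 ± 1.58 as labelled (limma adjusted p = 0.739, or 0.00682 with only the 6 h groups fitted) and 0.82 ± 0.12 without the 5 libraries (adjusted p = 7.33e-06), a 1.77-fold ratio of means.

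Cxcl9 was not called at 6 h, where Cxcl10 and Cxcl11 were without the 5 libraries. Its dKO libraries then had 11.4, 11.2, 14.9 and 16.1 RPKM against 11.3 to 15.6 in WT, and the difference was -0.08 ± 0.68 as labelled and -0.17 ± 0.16 without the 5 libraries (limma adjusted p = 0.952 and 0.372). At 1 h the dKO libraries had 1.06, 9.23, 0.734 and 0.956 RPKM against 1.63 to 1.87. The second value was the library nearest to WT at 2 h, and the other 3 lay below WT, so that a difference of 0.01 ± 0.68 as labelled became -0.69 ± 0.16 (adjusted p = 0.000992). At 0 h they had 0.0413, 0.759, 0.0357 and 0 RPKM and at 2 h 10.3, 0, 17.2 and 13.6, and no difference passed (0.09 and -1.19 as labelled, -0.22 and 0.00 without the 5 libraries). Cxcl16 passed at no time. Its dKO libraries ranged from 201 to 290.3 RPKM at 0 h, from 263 to 307 at 1 h, from 208 to 462 at 2 h and from 312 to 448 at 6 h, with differences of 0.22, 0.04, 0.07 and 0.05 ± 0.16 as labelled and 0.17, 0.04, 0.06 and 0.18 without the 5 libraries. The 6 h difference was 0.31 and called (limma adjusted p = 0.015) when median-of-ratios scaling was added to the latter.

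**Figure D4:**
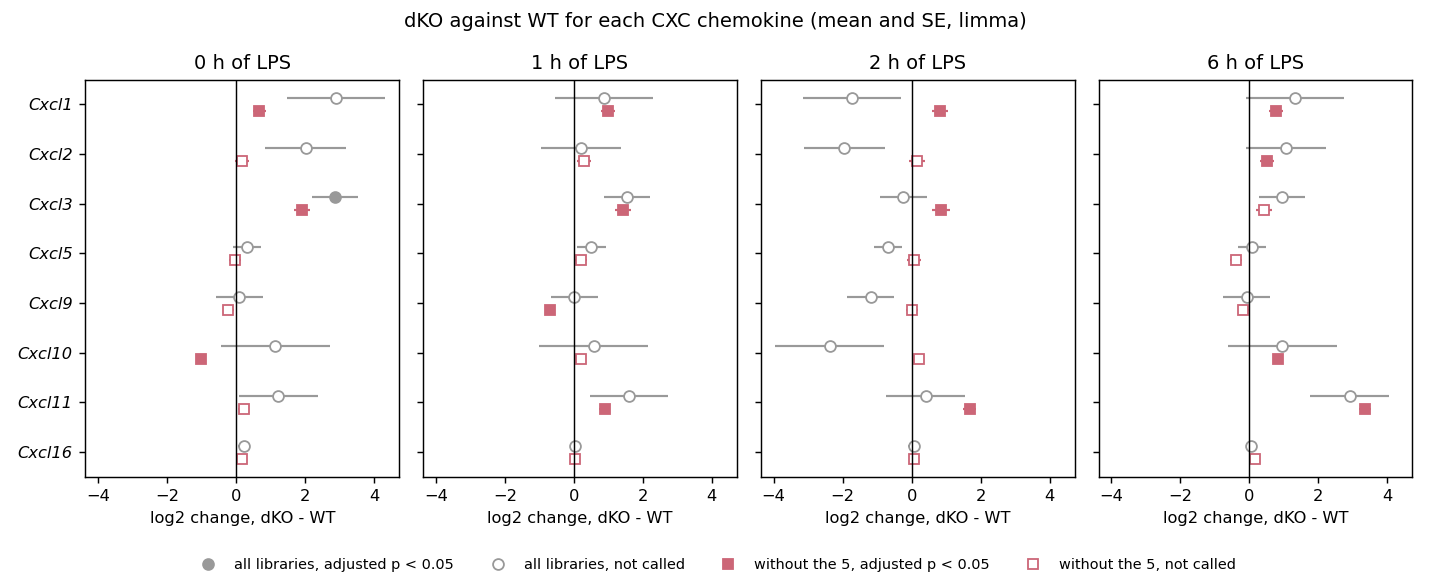
log2 difference of dKO from WT with its standard error for each member at 0, 1, 2 and 6 h of LPS, from all libraries (grey circles) and without the 5 libraries (red squares), filled where the limma adjusted p is below 0.05. Only Cxcl3 at 0 h is filled among the grey circles, and Cxcl11 moves from 0.22 at 0 h to 3.35 at 6 h among the red squares.

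The sets were set side by side by counts and medians only, and no test was made of their difference. Once the 5 libraries were left out, 2, 2, 2 and 2 of the 4 neutrophil-attracting members were higher in dKO at 0, 1, 2 and 6 h, 0 were lower, and the median log2 difference was 0.42, 0.65, 0.48 and 0.47. Of the 3 interferon-induced members 0, 1, 1 and 2 were higher and 1, 1, 0 and 0 lower, with medians of -0.22, 0.22, 0.20 and 0.82. In this fit 26.2%, 39.2%, 33.1% and 46.9% of all tested genes were called in either direction, so that 2 of 4 called at 6 h is near the share of all genes. As labelled the medians were 2.44, 0.69, -1.21 and 1.00 for the first set and 1.14, 0.57, -1.19 and 0.96 for the second, with 1 call in all.

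Whether the response to LPS itself differed was asked by the difference between the dKO and WT changes from 0 h. As labelled 0 members were called at 1, 2 and 6 h (limma), where 0.0359%, 0.305% and 0.923% of genes were. An unadjusted limma p below 0.05 was reached by 0, 3 and 0 members, beside 221, 2068 and 969 of all 11154 tested genes. With the 5 left out, 1, 2 and 3 members were called, against 1.8%, 5.62% and 20.3% of genes. Cxcl10 rose further in dKO at each time, by 1.24 ± 0.17, 1.22 ± 0.18 and 1.84 ± 0.17 (limma adjusted p = 9.67e-05, 0.000148 and 5.31e-08), which includes its lower level at 0 h. Cxcl11 rose further at 2 h and 6 h, by 1.46 ± 0.25 and 3.13 ± 0.23 (adjusted p = 0.000465 and 3.03e-09), while the difference of 0.68 ± 0.23 at 1 h did not pass (adjusted p = 0.181). Cxcl3 rose less in dKO by 6 h (-1.50 ± 0.33, adjusted p = 0.0017), beside its higher level at 0 h, with -0.49 and -1.07 at 1 h and 2 h that did not pass (adjusted p = 0.664 and 0.0735). The 2 h value became called when dKO 0 h replicate 4 was also left out (-1.30, adjusted p = 0.0281). As labelled the values of Cxcl10 were -0.56, -3.51 and -0.18 and those of Cxcl11 0.37, -0.82 and 1.68. These contrasts share the 0 h libraries with each other and with the comparisons above. Cxcl1, Cxcl2, Cxcl5, Cxcl9 and Cxcl16 passed at no time in either fit.

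The 7 other CXC ligand genes listed were mostly silent. Cxcl12, Cxcl13, Cxcl14, Cxcl15 and Cxcl17 never exceeded 0.305 RPKM, and Cxcl15 was listed at 0 throughout. Pf4, the platelet factor also known as Cxcl4, and Ppbp, the precursor of Cxcl7, were tested, and both were called higher in dKO at 0 h and 1 h, as labelled and without the 5 libraries. Pf4 was at 39.6 to 67.3 RPKM in WT and 129 to 186 in dKO at 0 h, and at 18.3 to 30.2 and 66.1 to 173 at 6 h, without overlap. Its log2 differences at the 4 times were 1.39, 1.51, 1.34 and 1.96 ± 0.22 (limma adjusted p = 7.85e-05 at 0 h) and 1.43 to 1.67 without the 5 libraries. Unlike the members, Pf4 fell over LPS in WT, by -1.17 ± 0.22 at 6 h, or by -0.49 with median-of-ratios scaling and without the 5 libraries (limma adjusted p = 0.0106).

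Of 8 CXC receptor genes 3 passed the filter. Cxcr2, the receptor of Cxcl1, Cxcl2, Cxcl3 and Cxcl5, was lower in dKO at 0 h and 1 h (-1.11 and -1.21 ± 0.27, limma adjusted p = 0.00931 and 0.00284; -0.97 and -1.04 without the 5 libraries). In WT its mean fell from 3.83 RPKM at 0 h to 0.175 at 6 h. Cxcr4, the receptor of Cxcl12, was higher in dKO at 2 h (1.98 ± 0.42, adjusted p = 0.00171; 1.39 without the 5 libraries) and Cxcr5 passed at no time. Cxcr3, the receptor of Cxcl9, Cxcl10 and Cxcl11, did not exceed 0.107 RPKM, and Cxcr6, the receptor of Cxcl16, did not exceed 1.10. Among 6 genes of proteases that cut chemokines, without the 5 libraries 3, 3, 3 and 3 were higher in dKO and 2, 1, 0 and 1 lower, where 26.2%, 39.2%, 33.1% and 46.9% of all genes were called in either direction. Those higher were Adam17, a sheddase (0.33 to 0.49), Mmp12, a macrophage elastase (0.66 to 0.78), and Mmp8, a neutrophil collagenase (0.85 to 1.18). Those lower were Dpp4, which trims Cxcl10, at 0, 1 and 6 h (-0.86, -0.85 and -0.64) and Mmp9 at 0 h (-0.39). As labelled Dpp4 was -0.92 ± 0.17 at 0 h (limma adjusted p = 0.000631).

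The inducing pathways were read from 2 further lists. Of 10 NF-kappaB targets and mRNA decay genes, all 10 were higher in WT at 1 h of LPS, where 6.84% of all genes were, among them Tnf (7.78) and Nfkbiz (7.27). Between the genotypes 0 were called at any time as labelled (limma), where 6.84%, 10.9%, 12.4% and 14.8% of all genes were. Without the 5 libraries 0, 0, 0 and 2 were higher in dKO and 6, 1, 1 and 1 lower at the 4 times, beside 26.2%, 39.2%, 33.1% and 46.9% of all genes called in either direction. Those lower at 1 h and 2 h were Rel (-0.41 and -0.34), and at 6 h Tnf (0.37) and Il6 (0.45) were higher and Zfp36 (-0.41) lower. With median-of-ratios scaling as well, 0, 2, 1 and 3 were higher and 4, 0, 0 and 0 lower, in a fit whose share of all genes is not given here. Which direction was called at 1 h and 2 h thus depended on the scaling, while at 6 h more were higher than lower in both fits. Of 9 tested interferon arm genes 5, 8 and 9 were higher in WT at 1, 2 and 6 h as labelled, where 6.84%, 11.2% and 14.9% of all genes were. Ifnb1, which encodes interferon beta, was at 0.179 to 0.528 RPKM in WT at 0 h, 565 to 652 at 1 h, 633 to 872 at 2 h and 11.3 to 23.5 at 6 h, and Ifng, interferon gamma, did not exceed 0.324. Between the genotypes 1 of the 9 was called as labelled, Irf8 at 2 h (-0.91 ± 0.29, limma adjusted p = 0.0384), where 12.4% of all genes were. Omitting the 5 libraries, 8 of 9 were lower in dKO at 0 h, where 26.2% of all genes were called, among them Isg15 (-1.63), Ifit1 (-1.60) and Irf7 (-1.90), and at 6 h, where 46.9% were called, 3 were higher, Ifit1 (0.73), Irf1 (0.29) and Ifnb1 (0.52), and 1 lower, Irf8 (-0.58). At 1 h and 2 h 2 and 0 were higher and 6 and 3 lower, beside 39.2% and 33.1% of all genes. In the same fit Cxcl10 stood at -1.02 at 0 h and 0.82 at 6 h, Cxcl9 at -0.22 and -0.17, and Cxcl11 at 0.22 and 3.35. At 1 h and 2 h Cxcl10 stood at 0.22 and 0.20, Cxcl9 at -0.69 and 0.0011, and Cxcl11 at 0.90 and 1.69. The part of the interferon arm in these differences was not tested.

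Summed levels of some cell type markers differed between the genotypes. The 8 dendritic cell markers summed to 2720 to 3388 RPKM in WT and 2324 to 3380 in dKO at 0 h, and to 4567 to 5180 and 3058 to 4601 at 6 h (3731 to 4601 without the 5 libraries). Of 8 neutrophil and precursor markers 7 were in the files, and their sum was lower in every dKO library at each time: 200.4 to 403 against 558 to 714 at 0 h and 217 to 395 against 411 to 627 at 6 h, or 200.4 to 265 and 217 to 293 without the 5 libraries. S100a8 and S100a9 made most of this sum, with means of 88.7 and 118 RPKM in dKO against 238 and 309 in WT at 0 h. As labelled, the means of Ngp (58.7 against 53.3) and Camp (6.53 against 5.34) were not lower in dKO at 0 h. Without the 5 libraries their dKO means were 48.4 and 5.28, below those of WT. The 7 macrophage markers found summed to 769.8 to 1724 in dKO against 497 to 690 in WT at 6 h, without overlap, and to 897 to 1611 against 939 to 1012 at 0 h. Without the 5 libraries the dKO sums were 769.8 to 861 at 6 h, above WT, and 897 to 938 at 0 h, below WT. At 6 h Cd14, which LPS induces, had a mean of 305 RPKM in dKO without the 5 libraries against 229 in WT, and Cd68 241 against 150, whereas C1qa had 24.4 against 38.3 and Emr1 59.6 against 61.7. The 5 markers of eosinophils, mast cells and basophils summed to 181 to 413 in dKO (181 to 250.1 without the 5 libraries) against 384 to 500 in WT at 0 h. All 5 T and NK cell markers and all 3 B cell markers were below 1 RPKM in every library, and the 5 fibroblast and endothelial markers summed to at most 6.10. The part of these markers in the chemokine differences was not tested.

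Over the 16 WT libraries the members correlated with each other, as they share libraries and the LPS course: Pearson r was 0.992 for Cxcl1 with Cxcl2 and 0.974 for Cxcl9 with Cxcl11, and 0.493 for Cxcl2 with Cxcl16, the lowest of 28 pairs. The gene most like Cxcl1 among all other tested genes was Nfkbiz (r = 0.996), followed by Tnfaip3 and Tnf. For Cxcl2 it was Tnf (0.995), followed by Tnfaip3 and Grasp, and for Cxcl3 Bcl2a1b (0.992), followed by Irg1 and Bcl2a1d. Cxcl10 was closest to Tnfsf15 (0.996), Cflar and Il6, Cxcl9 to Pvrl2 (0.993), Cmpk2 and Stat5a, and Cxcl11 to Slamf1 (0.994), Mxd1 and Gbp5. Cxcl16 was closest to Traf1 (0.978), Serpinb6b and Relb, and Cxcl5 to Rap1b (0.967), Rhbdf2 and Fam102b.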

How the data were processed

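RNA of 32 libraries was described by the labels as total RNA extracted with Trizol and sequenced from TruSeq RNA kit v2 libraries. Per the submitters' processing notes the authors used CASAVA 1.8.2 and the mm9 build; the annotation and the rule for reads matching several genes are not given in the sources used here. Values deposited by the authors are RPKM per gene. A second deposited column, read here as the coverage signal in aligned bases per gene, was used only for depth (1.27 to 1.87 Gb per library) and to check that its ratio to RPKM was fixed by gene and library (largest relative spread 4.99e-06). Read counts were not analysed here, so counting error per gene is unknown. The 92 spike-in entries were left out.

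Of 22216 genes, 11154 with at least 1 RPKM in at least 4 of 32 libraries were tested, and all 8 members passed, Cxcl5, Cxcl9 and Cxcl11 only through libraries after LPS or nearest to a time after LPS. limma 3.58.1 (R 4.3.3, intensity trend, two-sided) was fitted to log2(RPKM + 0.5) with 8 group means in 1 fit (residual df 24, or 19 without the 5 libraries). P-values were adjusted by Benjamini-Hochberg over all tested genes within each of 17 contrasts, with calls below 0.05. Fold changes on this scale understate those of low genes. Exact two-sided permutation tests on log2 levels used 70 splits and were not adjusted (scipy 1.17.1). They were run for all 8 members at each time, and their p is printed only where it was the smallest possible. Groups are those of the labels. The pipeline was tested on simulated data.

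The members and lists were chosen with earlier results of these data known. All 8 members were named in every contrast, up to 4 genes of a list per contrast by smallest adjusted p and all where 5 or fewer were called, and for each member the 3 genes with the highest Pearson r over the WT libraries. Levels of Pf4, Cxcr2, Cxcr3, Cxcr6, Ifnb1 and Ifng are given for their roles. Alternatives were pseudocounts of 0.1 and 1, a filter at 5 RPKM or none, median-of-ratios scaling, quantile normalization, no intensity trend, only the groups of a contrast, a replicate block and leaving out each library. After the data were seen, fits without the 5 libraries, alone or with median-of-ratios scaling or a further library left out, and a block within genotype were added. The main fit has no block because the labels do not say that replicate numbers pair libraries. Of 16 WT and dKO pairs of the same number and time, the deviations from group means correlated above 0.1 in 1. Across times they did so in 16 of 24 pairs within WT and 5 of 24 within dKO. The dKO deviations include the 5 libraries, so the counts that involve dKO cannot decide whether its libraries are paired.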

Additional observations from a re-analysis of the deposited data

Results flagged for a closer look

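Of 64 groups of 4 libraries checked (8 members in 8 groups), 15 held a library far from the other 3, by Dixon's criterion, which chance alone meets in about 5% of groups. Of these, 14 lie in the 5 dKO libraries off their labelled time. In dKO 0 h replicate 2, Cxcl1 (968 RPKM), Cxcl2 (2844), Cxcl5 (0.790), Cxcl9 (0.759), Cxcl10 (1151) and Cxcl11 (10.9) were far above their group. In dKO 1 h replicate 2, Cxcl1 (682 RPKM) was far below and Cxcl9 (9.23) far above. In dKO 2 h replicate 2, Cxcl9 (0 RPKM) and Cxcl10 (2.51) were far below. In dKO 6 h replicate 4, Cxcl1 (489 RPKM), Cxcl2 (1542) and Cxcl5 (2.28) were far above and Cxcl16 (312) far below. The remaining one was Cxcl5 in WT 0 h replicate 3, the only library of its group not listed at 0 (0.0309 RPKM).

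The LPS response differed between the genotypes for 3 members without the 5 libraries, by limma's test of the difference (dKO change minus WT change, log2). Cxcl10 differed by 1.24 at 1 h, 1.22 at 2 h and 1.84 at 6 h, Cxcl11 by 1.46 at 2 h and 3.13 at 6 h, and Cxcl3 by -1.50 at 6 h. Of all genes 1.8%, 5.62% and 20.3% were called at 1, 2 and 6 h in that fit. The values of Cxcl10 and Cxcl3 include their genotype differences at 0 h (-1.02 and 1.92). As labelled, none of these response differences passed.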

How the results depend on the processing

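The choice that moved most was leaving out the 5 libraries, which also raised the calls over all genes. Members called then numbered 7 from 1 h to 2 h and 6 from 2 h to 6 h in WT, where 71.7% and 74.2% of genes were called. At the same steps in dKO they numbered 6 and 7 (64% and 67.3% of genes). For dKO against WT at 0, 1, 2 and 6 h they numbered 3, 4, 3 and 4 (26.2%, 39.2%, 33.1% and 46.9%). For the response differences they numbered 1, 2 and 3 (1.8%, 5.62% and 20.3%). With only the groups of a contrast fitted, the counts were 7 and 6 at the WT steps, 0 and 4 for dKO at 2 h and 6 h against 0 h, and 0, 2 and 2 for dKO against WT at 0, 1 and 6 h. Quantile normalization gave 2 for WT 1 h to 2 h and 4 for dKO 2 h against 0 h, no filter and a block within genotype gave 4 for the latter, and median-of-ratios scaling gave 0 for WT 2 h to 6 h. Leaving out 1 library at a time, the counts ran from 0 to 1 for WT 2 h to 6 h, 4 to 7, 3 to 8 and 4 to 8 for dKO at 1, 2 and 6 h against 0 h, 0 to 2 for dKO 1 h to 2 h and for dKO 2 h to 6 h, and 0 to 1 for dKO against WT at 2 h. All other counts stayed within 1.5 times the reported ones. Apart from the fit without the 5 libraries, the shares of all genes called in these alternative fits, blocks included, are not given here. Their counts therefore say nothing of the members relative to other genes. The causes were not tested.

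For single members, log2 values of dKO minus WT changed sign as follows. Without the 5 libraries they were -1.02 for Cxcl10, -0.022 for Cxcl5 and -0.22 for Cxcl9 at 0 h, -0.69 for Cxcl9 at 1 h, 0.81 for Cxcl1, 0.15 for Cxcl2, 0.85 for Cxcl3, 0.075 for Cxcl5, 0.0011 for Cxcl9 and 0.20 for Cxcl10 at 2 h, and -0.40 for Cxcl5 at 6 h. With a pseudocount of 0.1 they were -0.076 and -0.094 for Cxcl9 at 0 h and 1 h and -0.056 for Cxcl5 at 6 h. With median-of-ratios scaling they were -0.019 for Cxcl16 at 2 h and 0.076 for Cxcl9 at 6 h, and with quantile normalization -0.11 for Cxcl16 and 0.022 for Cxcl9 at 6 h. Leaving out 1 library at a time, the range at 0 h was -1.02 to 2.00 for Cxcl10, -0.022 to 0.43 for Cxcl5 and -0.22 to 0.22 for Cxcl9, and at 1 h -0.69 to 0.30 for Cxcl9. At 2 h it was -2.60 to 0.19 for Cxcl1, -0.66 to 0.56 for Cxcl3, -1.70 to 0.012 for Cxcl9, -3.24 to 0.20 for Cxcl10, -0.71 to 2.38 for Cxcl11 and -0.13 to 0.25 for Cxcl16, and at 6 h -0.40 to 0.30 for Cxcl5. Leaving out a further library beside the 5, it was -0.034 to 0.54 for Cxcl2 at 0 h, -0.047 to 0.35 for Cxcl5 at 1 h, and at 2 h -0.11 to 0.26 for Cxcl5, -0.36 to 0.36 for Cxcl9 and -0.023 to 0.14 for Cxcl16.

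The response differences of Cxcl10 were 1.24, 1.22 and 1.84 and that of Cxcl11 at 2 h 1.46 without the 5 libraries. In the fit of all libraries as labelled, leaving out 1 library at a time, the values ran from -1.42 to 1.59 and -1.04 to 1.97 for Cxcl10 at 1 h and 6 h, and from -0.33 to 1.37 and -1.94 to 1.15 for Cxcl11 at 1 h and 2 h, where a pseudocount of 0.1 gave -0.18 for Cxcl11 at 1 h. Without the 5 libraries and 1 further library no sign changed: 1.03 to 1.43, 1.01 to 1.41 and 1.62 to 2.02 for Cxcl10, and 1.29 to 1.59 for Cxcl11 at 2 h. From 2 h to 6 h in WT, Cxcl9 was at -0.021 with median-of-ratios scaling, with or without the 5 libraries, and ran from -0.047 to 0.20 without 1 library. The balance of the sets in dKO at 2 h ran from -0.48 to 1.02 without 1 library.

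With the replicate number as a block, the counts of members called stayed within 1.5 times the reported ones in all 17 contrasts (7, 8 and 7 for WT at 1, 2 and 6 h against 0 h, 5 for dKO at 2 h against 0 h), and 3 single calls were lost: Cxcl5 in WT at 6 h (0.93, limma adjusted p = 0.0575) and Cxcl1 and Cxcl2 in dKO at 2 h (adjusted p = 0.0612 and 0.0528). With the block within genotype, fitted to the LPS contrasts, 7 were lost: these 3 (limma adjusted p = 0.0769, 0.0837 and 0.0737), Cxcl9 at 1 h in WT (0.0519) and dKO (0.0649), Cxcl5 in dKO at 1 h (0.0615) and Cxcl16 in dKO at 2 h (0.0676). Same-numbered deviations correlated above 0.1 in 16 of 24 pairs within WT and 5 of 24 within dKO. With no read counts, the depth behind Cxcl5 and the 0 h values of Cxcl1, Cxcl9 and Cxcl11 is unknown.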
